A study of Mus musculus with 20 samples.

Results

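Histone genes were followed in polyadenylated RNA of whole mouse kidney. They were taken from the gene table by symbol, as every row named for one of the mouse histone clusters (Hist1, Hist2, Hist3 and Hist4) or carrying a newer H1, H2A, H2B, H3 or H4 gene symbol of the same kind. This gave 75 genes of 55822, with 11 for H1, 20 for H2A, 19 for H2B, 12 for H3 and 13 for H4, and 56 of them belong to the Hist1 cluster. All mice were 8-week-old C57BL/6J males, an inbred strain, and received 1 treatment a day for 6 days, with the organs taken on day 7. Controls received phosphate-buffered saline (PBS), and the treated group received puberulic acid, a tropolone compound of moulds, at 1 mg per day, with 5 kidney samples in each group. The route is given in the labels as gavage or intraperitoneal without saying which mouse had which, and the labels do not say that each numbered sample is a separate mouse, so p-values measure the spread between these samples. Both supplement lots of the study, given at 1000 mg per day, are not analysed here, because the names of their 10 columns do not show the lot.

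Histones are the proteins that package DNA: H2A, H2B, H3 and H4 form the core of the nucleosome, and H1 binds the linker DNA between nucleosomes. Most clustered histone genes are switched on as cells copy their DNA, and their mRNAs end in a conserved stem-loop, bound by the protein SLBP, in place of a poly(A) tail. A smaller set of histone genes works independently of DNA replication and gives ordinary polyadenylated mRNAs, and some clustered genes also give tailed forms in cells that have stopped dividing. The libraries were made with poly(A) selection, so the values below describe histone RNA that was recovered by that selection and not the total histone mRNA of the kidney.

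The stem-loop is shown here because it is the feature that sets most of these mRNAs apart from the polyadenylated RNA that was selected. It was searched in the GENCODE M21 transcripts (mouse build GRCm38) as 16 bases with a stem of 6 pairs, which begins with GG, ends with CC and closes on a T-A pair, around a loop of 4 bases that begins with TT. It was found in an annotated transcript of 44 of the 75 genes. Within the last 100 bases it stood in 0.04% of 58797 protein-coding transcripts. The 6 forms found follow, each with 5 bases on either side, written 5′ to 3′ with the stem-loop in capitals. The first was held by 26 genes of all families but H4, the second by 7 H4 genes, the third by 6 genes, the next ones, of Hist1h4i and Hist1h4b, by 2 H4 genes each, and the last by 1 H2A gene.
Hist1h1c (H1f2): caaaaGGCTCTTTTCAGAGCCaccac
Hist1h4h (H4c8): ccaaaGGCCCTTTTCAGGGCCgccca
Hist1h2bb (H2bc3): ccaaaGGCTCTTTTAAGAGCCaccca
Hist1h4i (H4c9): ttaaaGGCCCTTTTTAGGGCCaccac
Hist1h4b (H4c2): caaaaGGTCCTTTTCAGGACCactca
Hist2h2ac (H2ac20): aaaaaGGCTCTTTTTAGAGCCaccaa
The annotated transcripts differ in how far they run past this element. In 9 genes every transcript with the element ended at most 30 bases after it, as in Hist1h2bb with 23 bases. In 13 genes the longest run after it was 31 to 100 bases, as in Hist1h4h with 46, and in 22 it was over 100 bases, as in Hist1h1c with 840 and Hist3h2a with 1643. In 31 genes, among them H1f0, Hist1h2bc and Hist2h2be, no annotated transcript held it. This class is mixed. Some of its genes have only a short annotated transcript, as Hist1h4k with 312 bases and Hist1h2bl with 381, and some are pseudogenes, as Gm6970. For these the absence may reflect the annotation and not the mRNA. A poly(A) signal (AATAAA or ATTAAA) stood in the last 50 bases of a transcript in 20 of the 75 genes, against 50.2% of the protein-coding transcripts. These figures differ in unit, since a histone gene counted if any of its transcripts, of any type, held the signal.

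Total estimated counts ran from 18409877 to 24705587 per library. Expression is given as counts-per-million (CPM) values, where each library size was first corrected by a TMM factor (trimmed mean of M-values). The factors were 0.827 to 0.848 in control libraries, against 1.17 to 1.26 in treated ones. Of 16266 genes tested, 65.3% were called at an adjusted p under 0.05 (the quasi-likelihood test of edgeR, with p-values adjusted by the Benjamini-Hochberg method), 34.2% higher and 31.1% lower with puberulic acid, and for 50.1% every treated sample lay on the same side of all controls in CPM. Over all genes the median log2 fold change was 0.046; it was 0.56 when the plain total count was the library size, so that choice moves every gene upward by about the same step. Of 8 kidney markers, all detected, 7 were lower and 0 higher (4 and 1 with total counts), and their summed level was 30600 to 43400 CPM in control kidneys, against 8521 to 12550 CPM in treated ones. Kap was the largest part of that sum, with a mean of 28710 CPM in controls and 5151 CPM in treated kidneys. Umod, at 3335 and 3476 CPM, was not called. For leukocytes the sum of 8 markers was 73.1 to 168 CPM in control kidneys, against 109.5 to 408 CPM in treated ones (3 of 6 tested higher, 0 lower), and for red cells the sum of 6 markers was 991 to 3238 CPM against 27.8 to 265 CPM (5 of 5 tested lower). The part of these markers in the histone results was not tested, and in whole kidney fewer cells of a type and less RNA per cell cannot be told apart.

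Polyadenylated histone RNA as a whole was lower after puberulic acid on the TMM scale. The 5 genes that supply most of its counts fell on that scale, namely H1f0, Hist1h1c, Hist2h2aa2, Hist3h2a and Hist1h2bc. With total counts H1f0 had the opposite sign, and H1f0, Hist1h1c and Hist3h2a were not called. Hist2h2be rose under both scalings, and 48 of the 52 scarce genes with counts (92.3%) had a larger summed count after the compound than in controls, against 75.8% of all genes with counts that were not tested. Of the 75 genes, 16 had enough counts to be tested, and 3 of them were called higher and 7 lower, against 34.2% and 31.1% of all genes. The groups were fully separated in CPM for 8 of the 16, close to the 50.1% of all genes, with 1 of the 8 higher and 7 lower with puberulic acid. The median log2 fold change of the 16 genes was -0.52, beside 0.046 for all genes. These 16 are the histone genes with the most counts and do not stand for all 75.

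Summed over all 75 genes, the level was 579, 612, 670.4, 740.3 and 647 CPM in control samples 1 to 5 and 388, 406, 393, 414 and 368 CPM in puberulic acid samples 1 to 5. Every treated sample was below every control, and the means were 649.7 ± 61.3 CPM for controls against 394 ± 17.6 CPM after the compound, a ratio of 0.606. In plain CPM, with the total count as library size and no TMM factor, the sums were 544.6 ± 55.7 for controls against 468 ± 11.4 for treated samples, and the ranges of 479 to 624.5 and 455 to 482 overlapped. The family sums were lower for H2B, with a ratio of 0.508 on the TMM scale and 0.722 in plain CPM, for H2A (0.535 and 0.760) and for H3 (0.469 and 0.674). The groups did not overlap for H2B on either scale, overlapped for H2A in plain CPM (73.7 to 107.6 against 57.2 to 77.4), and overlapped for H3 on both scales (1.58 to 5.39 against 0.809 to 1.78 on the TMM scale). The H1 sum had a ratio of 0.714 on the TMM scale and 1.01 in plain CPM, so its direction turned with the scaling, and for H4 the ratios were 0.698 and 0.989. The sums over a family do not depend on how reads were divided among its near-identical copies, but they can rest on few genes. On the TMM scale, Hist1h2bc held 232.8 of the 242.7 CPM of H2B in controls and 106 of 123.4 CPM in treated samples. For H3, Hist2h3c2 held 2.59 of 2.99 CPM in controls and 0.645 of 1.4 CPM in treated samples. A family sum therefore does not show the direction of its other genes.

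**Figure D1:**
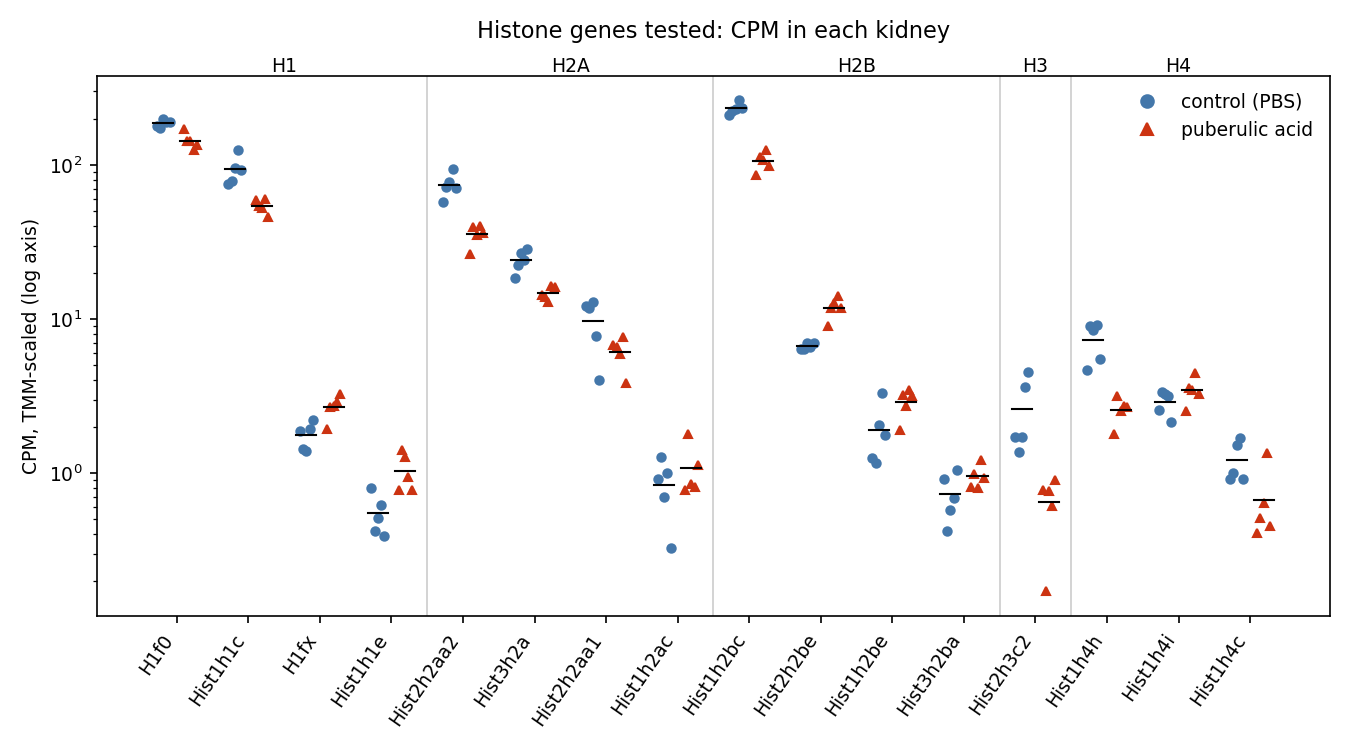
CPM (TMM-scaled, log axis) of the 16 histone genes tested, in families from H1 to H4, with 1 point per kidney sample (circles, control; triangles, puberulic acid) and a bar at each group's mean. Hist1h2bc lies between 212 and 263 CPM in control kidneys, against 86.4 to 124 CPM in treated ones, while Hist2h2be lies between 6.39 and 6.95 CPM in control kidneys, against 8.98 to 14.1 CPM in treated ones.

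Among the linker histones, H1f0 encodes a replication-independent subtype that accumulates in differentiated, non-dividing cells. Its level was 179.6, 173, 199, 192 and 189 CPM in control samples 1 to 5 and 171, 143, 142, 125 and 134 CPM in puberulic acid samples 1 to 5. The groups did not overlap, and the mean fell from 186 ± 10.3 to 143 ± 17.4 CPM (log2 fold change -0.38 ± 0.093, adjusted p = 0.00314), but with total counts as the library size the log2 fold change was 0.12 (adjusted p = 0.245), of the opposite sign. Hist1h1c (H1f2), a clustered somatic H1 gene whose annotated transcript runs past its stem-loop, had 75.7, 78.8, 95.1, 126 and 93.2 CPM in control samples 1 to 5 and 59, 54.1, 53, 60 and 46.3 CPM in puberulic acid samples 1 to 5. All treated samples were below all controls, and the mean went from 93.7 ± 19.9 to 54.5 ± 5.5 CPM (log2 fold change -0.78 ± 0.14, adjusted p = 0.000299). With total counts its log2 fold change was -0.28 (adjusted p = 0.0792) and was not called.

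Of the other 9 linker genes 2 were tested, and both were called higher from much smaller counts. H1fx (H1f10), a replication-independent H1 subtype, had 1.88, 1.42, 1.4, 1.93 and 2.21 CPM in control samples 1 to 5 and 1.93, 2.68, 2.71, 2.89 and 3.28 CPM in puberulic acid samples 1 to 5. Puberulic acid sample 1 lay within the control range and the other 4 above it, and the gene was called higher (log2 fold change 0.61 ± 0.21, adjusted p = 0.0255). Hist1h1e (H1f4), another clustered somatic H1 gene, had 0.799, 0.422, 0.509, 0.623 and 0.390 CPM in control samples 1 to 5 and 0.779, 1.41, 1.27, 0.937 and 0.771 CPM in puberulic acid samples 1 to 5. Samples 1 and 5 of the treated group were just under the highest control, sample 1, and the other 3 were above all controls (log2 fold change 0.90 ± 0.29, adjusted p = 0.0181). Neither call held in every fit. H1fx was not called without control sample 2 or 3, without puberulic acid sample 2, 3, 4 or 5 (adjusted p 0.0506 to 0.0865) or with no filter on counts (adjusted p = 0.0629). Hist1h1e was not called without control sample 2, without puberulic acid sample 2 or 3 (adjusted p 0.0512 to 0.0554), with no filter (adjusted p = 0.0565) or with the replicate block (adjusted p = 0.0512).

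Of the H2A genes, the Hist2h2aa pair is a duplicated couple in the Hist2 cluster. Hist2h2aa2 (H2ac19) had 57.3, 72.3, 77.3, 94.3 and 70.7 CPM in control samples 1 to 5 and 26.2, 39.7, 35.1, 40 and 36.1 CPM in puberulic acid samples 1 to 5, with no overlap between the groups (log2 fold change -1.07 ± 0.14, adjusted p = 4.22e-05). Its partner Hist2h2aa1 (H2ac18) had 12.2, 11.7, 12.9, 7.73 and 4.03 CPM in control samples 1 to 5 and 6.79, 6.56, 5.89, 7.62 and 3.82 CPM in puberulic acid samples 1 to 5, with control sample 5 among the treated values and the other controls above them (log2 fold change -0.66 ± 0.29, adjusted p = 0.0647). All of the 31-base words of Hist2h2aa2 and 89.7% of those of Hist2h2aa1 occur in another gene's transcript, so the division of reads between the copies is uncertain. Summed, the pair gave 69.5, 84, 90.1, 102 and 74.7 CPM in control samples 1 to 5 and 33, 46.2, 41, 47.6 and 40 CPM in puberulic acid samples 1 to 5. The summed pair fell from 84.1 ± 12.8 to 41.6 ± 5.79 CPM (log2 fold change -1.02 ± 0.13, adjusted p = 2.23e-05), a fit that was added after the data were seen. Without control sample 5, Hist2h2aa1 alone was called lower (log2 fold change -0.87, adjusted p = 0.00479). It was also called lower with DESeq2 and with the replicate block.

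Hist3h2a (H2aw), the H2A gene of the small Hist3 cluster, had 18.6, 22.5, 26.8, 24.1 and 28.4 CPM in control samples 1 to 5 and 14.4, 13.9, 12.9, 16.5 and 16.1 CPM in puberulic acid samples 1 to 5. The ranges did not overlap, and the mean fell from 24.1 ± 3.84 to 14.8 ± 1.5 CPM (log2 fold change -0.70 ± 0.13, adjusted p = 0.000386), a call that was not made with total counts, where the log2 fold change was -0.19 (adjusted p = 0.21). Hist1h2ac (H2ac6), a Hist1 cluster gene, had a control mean of 0.840 ± 0.352 and a treated mean of 1.07 ± 0.424 CPM and was not called (log2 fold change 0.34 ± 0.36, adjusted p = 0.434). The remaining 16 H2A genes had too few counts to be tested.

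The H2B genes went in both directions. Hist1h2bc (H2bc4), a Hist1 cluster gene, had 212, 226, 229.7, 263 and 233 CPM in control samples 1 to 5 and 86.4, 112, 108, 124 and 98.3 CPM in puberulic acid samples 1 to 5. Its highest treated sample, sample 4, was far below the lowest control, sample 1, and the mean fell from 233 ± 18.7 to 106 ± 14.3 CPM (log2 fold change -1.14 ± 0.10, adjusted p = 2.14e-06). With total counts the log2 fold change was -0.63 (adjusted p = 0.00016), also lower. Hist2h2be (H2bc21), known in mouse olfactory neurons as an H2B variant of non-dividing cells, had 6.39, 6.43, 6.94, 6.61 and 6.95 CPM in control samples 1 to 5 and 8.98, 11.7, 12.6, 14.1 and 11.9 CPM in puberulic acid samples 1 to 5. Controls were tight and every treated sample exceeded them, with a control mean of 6.66 ± 0.268 and a treated mean of 11.8 ± 1.86 CPM (log2 fold change 0.83 ± 0.13, adjusted p = 0.000165). This gene shares 2.8% of its 31-base words with another gene. It stayed called higher under all 19 alternatives tried.

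Per 100 counts of Hist1h2bc, a ratio within a library that no scaling touches, Hist2h2be had 3.02, 2.86, 3.01, 2.52 and 2.97 in control samples 1 to 5 and 10.4, 10.4, 11.7, 11.3 and 12.1 in puberulic acid samples 1 to 5. The groups were far apart, at 2.88 ± 0.208 and 11.2 ± 0.745 per 100. Hist1h2be (H2bc6), which runs 1861 bases past its stem-loop, had a control mean of 1.9 ± 0.862 and a treated mean of 2.88 ± 0.615 CPM and was not called (log2 fold change 0.60 ± 0.30, adjusted p = 0.0958). Without control sample 4, its highest control, it was called higher (log2 fold change 0.89, adjusted p = 0.013), as it was with total counts (log2 fold change 1.11, adjusted p = 0.00597). Hist3h2ba (H2bu2), the H2B gene beside Hist3h2a, had a control mean of 0.726 ± 0.250 and a treated mean of 0.951 ± 0.169 CPM (log2 fold change 0.39 ± 0.28, adjusted p = 0.239) and was called higher with total counts (log2 fold change 0.90, adjusted p = 0.0124).

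A single H3 gene was tested. Hist2h3c2 (H3c15), a Hist2 cluster gene, had 1.71, 1.37, 1.72, 3.61 and 4.54 CPM in control samples 1 to 5 and 0.779, 0.170, 0.762, 0.611 and 0.900 CPM in puberulic acid samples 1 to 5. Controls 4 and 5 were the highest, every treated sample was below every control, and the mean fell from 2.59 ± 1.4 to 0.645 ± 0.284 CPM (log2 fold change -1.98 ± 0.45, adjusted p = 0.00199). Other genes hold 64.2% of its 31-base words, so its level depends on how shared reads were assigned.

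Of the 13 H4 genes 3 were tested, with 1 called lower and 2 not called. Hist1h4h (H4c8) had 4.68, 8.96, 8.53, 9.1 and 5.52 CPM in control samples 1 to 5 and 1.78, 3.15, 2.54, 2.73 and 2.67 CPM in puberulic acid samples 1 to 5. No treated sample reached the lowest control, sample 1, and the mean fell from 7.36 ± 2.09 to 2.57 ± 0.499 CPM (log2 fold change -1.51 ± 0.23, adjusted p = 0.000129), with 50% of its 31-base words held by other genes. Hist1h4i (H4c9) had a control mean of 2.9 ± 0.526 and a treated mean of 3.46 ± 0.687 CPM (log2 fold change 0.25 ± 0.20, adjusted p = 0.299), and it was called higher with total counts, at 0.76 (adjusted p = 0.00553). Within each library, Hist1h4i had 55.6, 37.4, 37.7, 35 and 38.4 in control samples 1 to 5 and 141, 113, 136, 164 and 123 in puberulic acid samples 1 to 5 counts per 100 counts of Hist1h4h. That ratio was below 100 in all controls and above 100 in all treated samples. Hist1h4c (H4c3) had a control mean of 1.21 ± 0.369 and a treated mean of 0.670 ± 0.387 CPM and was not called (log2 fold change -0.85 ± 0.37, adjusted p = 0.0605), but without puberulic acid sample 4 it was called lower (log2 fold change -1.30, adjusted p = 0.00351). With the replicate block Hist1h4c was also called lower.

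**Figure D2:**
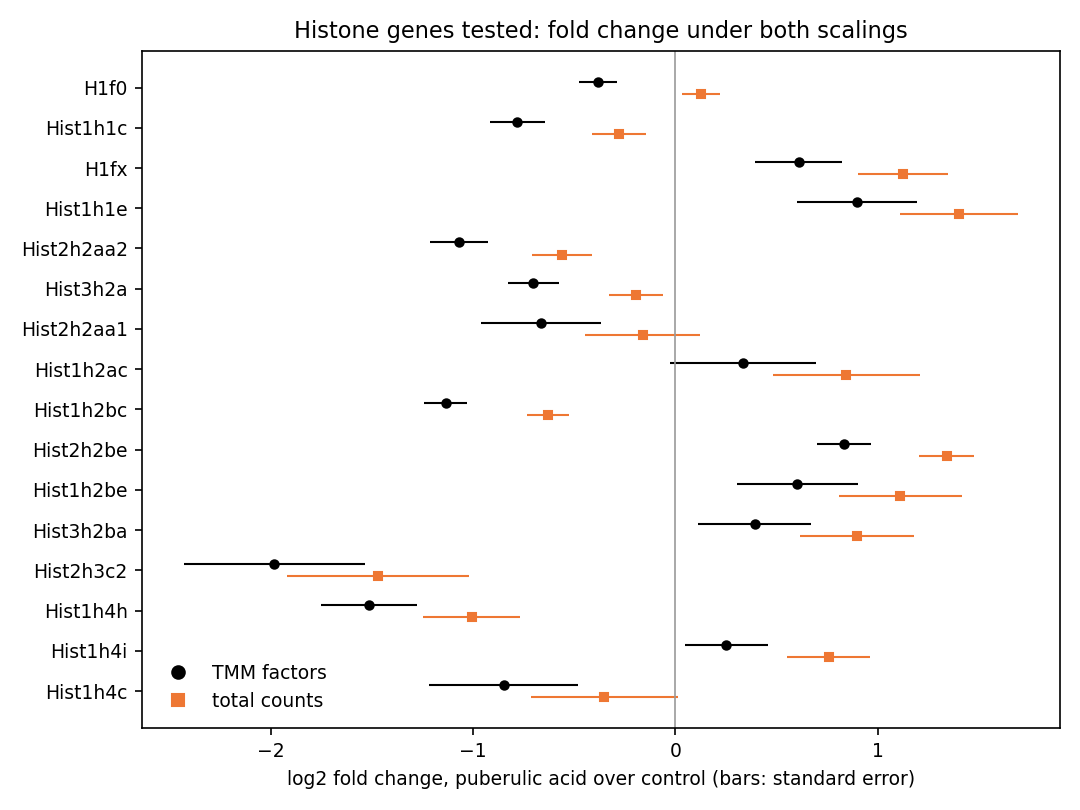
Log2 fold change of the 16 histone genes tested, puberulic acid over control, with standard errors, under TMM factors (circles) and total counts (squares). H1f0 lies at -0.38 with TMM factors and at 0.12 with total counts, and the other 15 genes keep their sign under both.

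The number of genes called higher was the less stable of the main counts. It was 3 on the TMM scale but 6 under total counts, where 56.4% of all genes were called higher. With DESeq2 it was 9 of the 46 histone genes that had an adjusted p, against 29.4% of all 22911 genes that had one. It became 1 without control sample 2 or without puberulic acid sample 2 or 3, when Hist2h2be alone was called, and 5 without control sample 4. The number called lower was 4 with total counts, against 15.5% of all genes, and 7 or 8 when any 1 sample was left out.

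The makeup of the polyadenylated histone pool also differed between the groups. The 5 genes with the most counts (H1f0, Hist1h2bc, Hist1h1c, the Hist2h2aa2 copy and Hist3h2a) held 94.1 ± 0.608% of all histone counts in controls and 89.8 ± 1.39% with puberulic acid, with no overlap. These are shares of counts and are not adjusted for transcript length. Hist1h2bc held 36.6, 36.9, 34.3, 35.5 and 36.1 in control samples 1 to 5 and 22.3, 27.8, 27.6, 30 and 26.7 in puberulic acid samples 1 to 5 percent, lower in every treated sample. H1f0 held 28.8 ± 1.92% in controls and 36.4 ± 5.01% with puberulic acid, and the ranges overlapped. Hist2h2be held 1.03 ± 0.0808% in controls and 3.01 ± 0.430% with puberulic acid, again with no overlap.

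The other 59 histone genes had too few counts for the test. Of these, 7 were at 0 in all 10 libraries, and no library held more than 25.2 counts of any of the other 52. A library's 3 counts correspond to 0.158 to 0.195 CPM in control libraries, against 0.0964 to 0.128 CPM in treated ones, and 42 of the 52 did not exceed 3 counts, with counts rounded to 1 decimal, in any control. Together the 59 genes had 30.8, 41.2, 34.8, 37.1 and 42 counts in control samples 1 to 5 and 87.5, 160.3, 163.8, 207 and 158 counts in puberulic acid samples 1 to 5. Every treated library held more than every control, and the treated sample 1 held the least of the 5. The summed level was 2.22 ± 0.366 CPM for controls against 6.08 ± 1.98 CPM after the compound, 2.74 times as high, and 3.87 times in plain CPM.

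Read gene by gene, 46 of the 52 scarce genes (88.5%) had a higher mean CPM with puberulic acid, against 69.8% of the 14516 genes of the whole table that had counts and were not tested. In 15 of the 52 (28.8%) there were 0 counts in all controls and some with puberulic acid, against 37.7% of those genes, so this count is not above the background. With no filter on counts, 10 of the 68 histone genes that had a count in some library were called higher (14.7%), which is below the 21.9% of all 30782 genes, of which 38.5% were called in either direction. Of the 10, 9 are among the 52 scarce genes (17.3%, against 10.7% of the 14516 genes the filter removes), and 0 of the scarce genes were called lower (against 2.19%). The 9 were H1foo, Hist1h2ab, Hist1h2ae, Hist1h2ag, Hist1h2bb, Hist1h2bj, Hist1h2bq, Hist1h3c and Hist1h4a. These 9 were singled out after their values were seen.

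Hist1h4a and Hist1h2bb carried the most counts of the 9. Hist1h2bb (H2bc3), an H2B gene whose annotated transcript ends 23 bases after its stem-loop, had 1, 2.5, 0, 0 and 1.9 counts in control samples 1 to 5 and 3.4, 25.2, 10.9, 10.3 and 14.8 counts in puberulic acid samples 1 to 5. Hist1h4a (H4c1), an H4 gene, had 1, 2, 1, 0 and 0 counts in control samples 1 to 5 and 5.3, 15.1, 13.1, 19.7 and 11.8 counts in puberulic acid samples 1 to 5. In counts every treated library exceeded every control for both, and treated sample 1 was the lowest of its group. In CPM, Hist1h2bb in treated sample 1 (0.111) was below control sample 5 (0.130), so its groups overlapped, and those of Hist1h4a did not. Hist1h2ag (H2ac11), an H2A gene that also ends 23 bases after the stem-loop, had 0, 0, 0, 1 and 0 counts in control samples 1 to 5 and 3.6, 6.4, 5.3, 8.7 and 6.1 counts in puberulic acid samples 1 to 5. Of these 9 genes, Hist1h2ab, Hist1h2ag, Hist1h2bj and Hist1h2bq share over 50% of their 31-base words with other genes, as does Hist1h3c. The scarce gene that went furthest the other way, Hist1h3f (H3c7), had 0, 4, 2, 2.2 and 7 counts in control samples 1 to 5 and 1.1, 0, 3.9, 1 and 0 counts in puberulic acid samples 1 to 5.

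**Figure D3:**
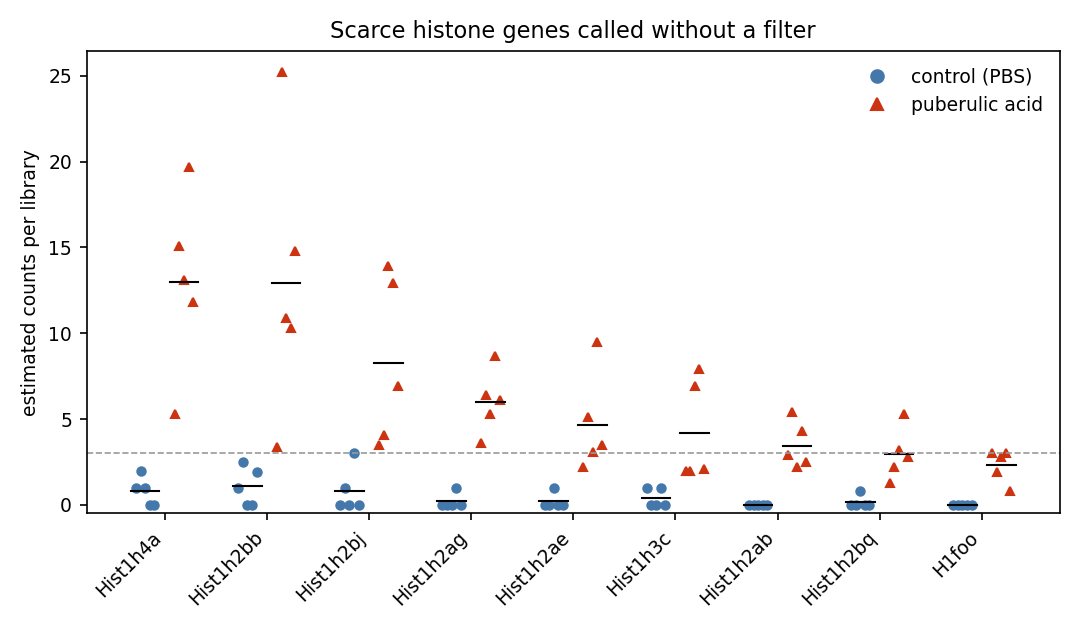
Estimated counts per library of the 9 scarce histone genes that were called without a filter, with 1 point per sample (circles, control; triangles, puberulic acid), a bar at each mean and a dashed line at 3 counts. No control library exceeds 3 counts, rounded to 1 decimal, for any of them, and Hist1h2bb reaches 25.2 counts in puberulic acid sample 2.

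Histone genes known from germ cells were near or at the floor. H1foo (H1f8), the oocyte linker histone, had 0 counts in all 5 controls and 3, 1.9, 2.8, 3 and 0.8 counts in puberulic acid samples 1 to 5. Hist1h1t (H1f6), the testis linker histone, had 0 counts in all 5 controls and 0, 0, 3, 3.9 and 4.9 counts in puberulic acid samples 1 to 5. H1fnt (H1f7), Hist1h2aa (H2ac1) and Hist1h2ba (H2bc1), also known from testis, were at 0 in all 10 libraries, which allows up to 3 counts in each. Of 8 germ-cell markers outside the histones, 3 were at 0 in all libraries, among them the protamines Prm1 and Prm2, and the summed level of the 8 was 0.58 to 2.56 CPM in control kidneys, against 1.11 to 3.67 CPM in treated ones.

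Scarce genes include all 9 that are annotated to end at most 30 bases after the stem-loop. Their sum was 0.171, 0.844, 0.382, 0.498 and 0.519 CPM in control samples 1 to 5 and 0.520, 2.26, 1.69, 2.08 and 1.61 CPM in puberulic acid samples 1 to 5. Treated samples 2 to 5 were above all controls, and treated sample 1 lay within the control range. The means were 0.483 ± 0.244 CPM for controls against 1.63 ± 0.677 CPM after the compound, from 3.1 to 16.6 counts per control library and 14.5 to 54.2 per treated library. The sums of the other classes were lower with puberulic acid on the TMM scale and did not overlap. For genes that end 31 to 100 bases after the element the ratio was 0.491, for those that end later 0.634, and for those with none 0.619. In plain CPM these ratios were 0.697, 0.899 and 0.879, and for the first class 4.8. A few abundant members carry these other sums. Hist2h2aa2, Hist2h2aa1 and Hist1h4h held 99.7% of the control CPM of the class that ends 31 to 100 bases after the element, Hist1h1c and Hist3h2a 90.8% of the next, and Hist1h2bc and H1f0 98% of the class with none. Gene by gene, a higher mean CPM with puberulic acid was found for 8 of 9 genes with counts in the first class, and for 10 of 13, 15 of 21 and 20 of 25 in the others, whose sums thus go against most of their genes. Of all genes with counts that were not tested, 69.8% also had a higher mean CPM with puberulic acid. Most of the histone genes counted here were not tested either, so these counts are not read as a trait of the classes. Of the 9 genes of the first class, 8 share over 50% of their 31-base words with other genes, so its sum, unlike a family sum, depends on how reads were divided. The classes rest on annotated ends and not on ends read from these libraries.

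**Figure D4:**
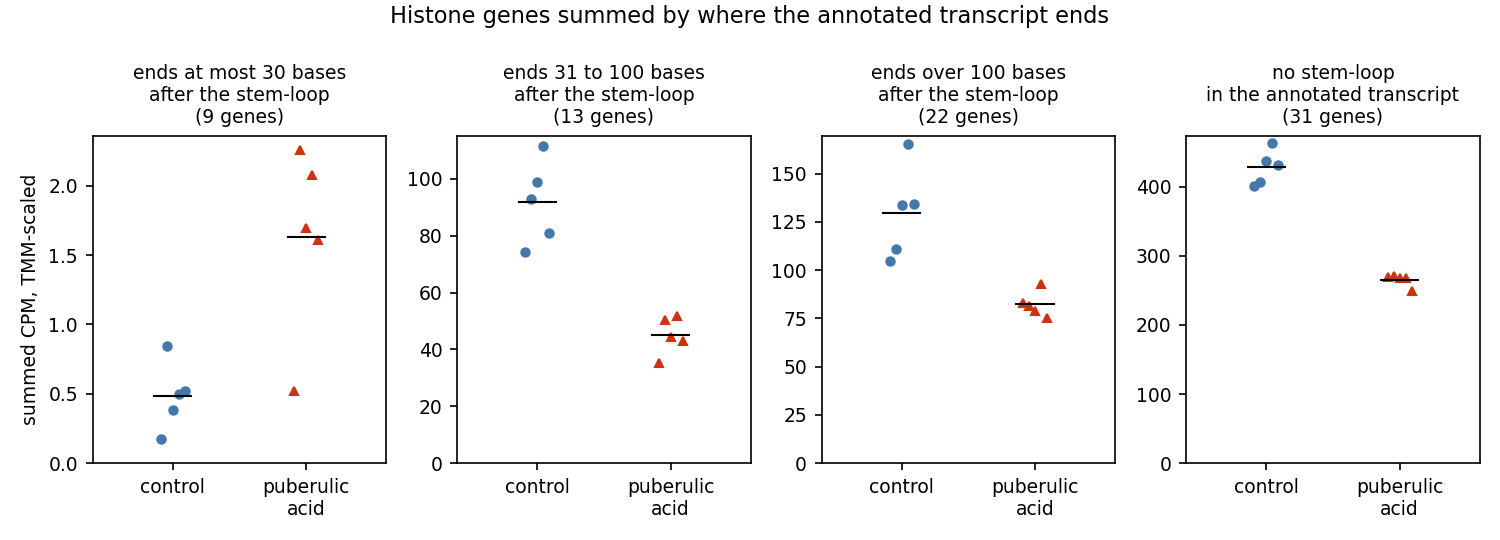
Summed CPM (TMM-scaled, linear axis from 0, separate for each panel) of histone genes grouped by how far the annotated transcript that holds the stem-loop runs past it (the longest such run per gene), with 1 point per sample and a bar at each mean. The 9 genes that end within 30 bases sum to 0.483 ± 0.244 CPM in control kidneys, against 1.63 ± 0.677 CPM in treated ones, while the other panels, carried by 2 or 3 abundant genes each, are lower with puberulic acid on this scale.

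Promoters are shown for 1 scarce gene that gained counts, Hist1h2bb, and for 3 genes called lower on the TMM scale, to set their sequence beside the values. RefSeq's promoter table (GRCm38.p6) held 65 of the 75 genes, and the 150 bases before each start site were searched on both strands. CCAAT was present in 78.5% of the 65 promoters, against 25.3% of 27025 promoters. It stood in 17 of 17 H2A and 16 of 16 H2B promoters but in 3 of 12 of H4. Some H2A and H2B windows overlap on opposite strands, as those of Hist1h2ae and Hist1h2bg, so the same motif site can count for both genes. The octamer ATTTGCAT stood in 15.4% (5 H2A and 5 H2B genes) against 1.02%, and TATAAA in 36.9% against 8.08%. In the sequences below, 5′ to 3′ along the gene, capitals mark these motifs on either strand.
Hist1h2bb (H2bc3), chr13:23746584-23746733 (+ strand, GRCm38.p6): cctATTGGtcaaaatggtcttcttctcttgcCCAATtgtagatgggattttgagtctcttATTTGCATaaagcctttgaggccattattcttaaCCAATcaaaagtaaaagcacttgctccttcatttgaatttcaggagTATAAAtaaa
Hist1h1c (H1f2), chr13:23738657-23738806 (+ strand, GRCm38.p6): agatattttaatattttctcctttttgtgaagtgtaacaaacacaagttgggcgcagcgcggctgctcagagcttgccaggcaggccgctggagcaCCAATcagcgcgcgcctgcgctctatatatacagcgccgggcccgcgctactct
Hist3h2a (H2aw), chr11:58954535-58954684 (+ strand, GRCm38.p6): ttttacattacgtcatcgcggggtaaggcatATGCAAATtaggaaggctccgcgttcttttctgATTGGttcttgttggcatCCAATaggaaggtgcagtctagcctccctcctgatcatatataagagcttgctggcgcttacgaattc
Hist1h4h (H4c8), chr13:23530894-23531043 (+ strand, GRCm38.p6): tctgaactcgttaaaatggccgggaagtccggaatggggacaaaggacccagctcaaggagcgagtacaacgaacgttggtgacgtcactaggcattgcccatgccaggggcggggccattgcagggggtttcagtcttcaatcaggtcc
Hist1h2bb holds all of the motifs, Hist1h1c holds CCAAT, Hist3h2a holds CCAAT and the octamer, and Hist1h4h holds none of these letters in the window. Of the 9 scarce genes called higher with no filter, 3 (Hist1h2ab, Hist1h2ae and Hist1h2bb) hold all of the motifs and the other 6 hold CCAAT alone, so the printed Hist1h2bb promoter does not stand for all of them. A match is a description of the sequence and not a bound site.

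Replacement variants are, as a rule, histones made outside DNA replication from ordinary polyadenylated mRNAs. Of 18 genes on a list of histone variants, 13 were tested, 5 rose and 5 fell, near the 34.2% and 31.1% of all genes, with a median log2 fold change of 0.02. With total counts 9 were called higher and 0 lower, beside 56.4% and 15.5% of all genes. The counts include H1f0, H1fx, Hist3h2a and Hist3h2ba described above, and the last pair hold the stem-loop of replication-dependent genes in their annotated transcripts. For H2ax, Cenpa and the other listed variants, a link to DNA replication was not tested. Their changes are therefore not read as independent of it. H2ax, whose protein is phosphorylated at DNA breaks, rose from 14.9 ± 2.95 to 29.9 ± 11.2 CPM (log2 fold change 1.01 ± 0.26, adjusted p = 0.00447). H2az1, a variant of promoters, rose from 106 ± 4.93 to 173 ± 31 CPM (log2 fold change 0.71 ± 0.12, adjusted p = 0.000251). Both genes of the replacement histone H3.3 were called in opposite directions, H3f3b from 231 ± 10.9 to 393 ± 62.5 CPM (log2 fold change 0.77 ± 0.11, adjusted p = 6.96e-05) and H3f3a from 356 ± 33.7 to 300.1 ± 20.9 CPM (log2 fold change -0.24 ± 0.089, adjusted p = 0.0284), and with total counts H3f3a was higher at log2 fold change 0.26 (adjusted p = 0.021). H2aj fell from 174 ± 27.7 to 108 ± 18.9 CPM (log2 fold change -0.68 ± 0.14, adjusted p = 0.00121), and Cenpa, the H3 variant of centromeres, rose from 2.54 ± 1.51 to 11.6 ± 4.01 CPM (log2 fold change 2.19 ± 0.41, adjusted p = 0.000514). Without control sample 4, 3 of the list were called lower in place of 5.

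Of 23 listed genes that process histone mRNA, 21 were tested, 9 rose and 2 fell, beside 34.2% and 31.1% of all genes, with a median log2 fold change of 0.21. With total counts 19 were higher and 0 lower, beside 56.4% and 15.5% of all genes. Slbp, the stem-loop binding protein, rose from 19.2 ± 1.83 to 39.4 ± 7.16 CPM (log2 fold change 1.04 ± 0.13, adjusted p = 2.43e-05), and Eri1, the exonuclease that trims the stem-loop end, from 12.3 ± 0.411 to 26.6 ± 2.22 CPM (log2 fold change 1.11 ± 0.088, adjusted p = 6.53e-07). In the U7 particle that cuts histone mRNA, Lsm11 rose from 3.84 ± 0.617 to 7.91 ± 1.29 CPM (log2 fold change 1.04 ± 0.17, adjusted p = 0.0002) and Lsm10 fell from 10.8 ± 1.16 to 7.22 ± 0.613 CPM (log2 fold change -0.58 ± 0.12, adjusted p = 0.00133), a fall that was not called with total counts (log2 fold change -0.071). Casp8ap2, the histone locus body protein FLASH, rose from 7.78 ± 2.05 to 13 ± 2.58 CPM (log2 fold change 0.74 ± 0.20, adjusted p = 0.00595). Of the cleavage factors, Cpsf2 rose from 26.4 ± 2.82 to 37.5 ± 1.98 CPM (log2 fold change 0.50 ± 0.089, adjusted p = 0.000336). Cpsf1, of the same complex, fell from 46.7 ± 10.6 to 27.9 ± 9.37 CPM (log2 fold change -0.74 ± 0.23, adjusted p = 0.0143), with overlapping ranges, and was not called with total counts (log2 fold change -0.24, adjusted p = 0.358). For Cpsf3, the nuclease, the log2 fold change was -0.19 ± 0.083 (adjusted p = 0.0598). For genes that act in poly(A) tail addition, Papola was at log2 fold change 0.24 (adjusted p = 0.052) and Pabpn1 at 0.21 (adjusted p = 0.118).

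Regulators of histone transcription rose in 10 of 16 cases and fell in 1, with a median log2 fold change of 0.80 (15 and 0 with total counts). The shares of all genes to set beside this list and the chaperones are 34.2% higher and 31.1% lower, or 56.4% and 15.5% with total counts. The 3 largest changes were in Myc, Ccne2 and Ccne1, with log2 fold changes of 3.03, 2.87 and 2.83, where the last pair encode the cyclins E that activate histone transcription through Npat. Npat itself, chosen after its values were seen, rose from 9.32 ± 2.19 to 15.4 ± 1.46 CPM (log2 fold change 0.72 ± 0.15, adjusted p = 0.00146). Histone chaperones, which carry histones to DNA, rose in 17 of 24 cases and fell in 2, with a median of 0.73 (22 and 0 with total counts). Asf1b and Chaf1b, which deposit H3 and H4 behind the replication fork, had log2 fold changes of 3.11 ± 0.35 and 2.72 ± 0.25.

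DNA synthesis genes, which are active when clustered histone genes are, rose in 29 of 31 cases and fell in 1, with a median log2 fold change of 1.87. Genes of G2 and mitosis rose in 16 of 16, with a median of 4.02. Of all genes 34.2% rose and 31.1% fell, and with total counts, which gave the same counts for both lists, 56.4% rose and 15.5% fell. The summed DNA synthesis level was 296, 302, 295, 268 and 284 in control samples 1 to 5 and 512, 764, 825, 1025 and 872 in puberulic acid samples 1 to 5, in CPM. Treated sample 1 had the smallest sum of the treated group, as it had for the mitosis genes (142 CPM, against 329 to 456 CPM in the others) and for the scarce histone genes (3.19 CPM, against 5.14 to 8.39 CPM). It also had the lowest leukocyte marker sum of the treated group (109.5 CPM, against 226.7 to 408 CPM) and the highest kidney marker sum (12550 CPM, against 8521 to 9060 CPM). Whether these levels bear on one another was not tested. Among 12 tested genes of cell cycle exit, 4 rose and 4 fell, near the shares of all genes, with Cdkn1a at log2 fold change 6.21 ± 0.23 the furthest, and with total counts 9 were higher and 2 lower, beside 56.4% and 15.5% of all genes. Without control sample 3, 2 of that list were called lower.

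**Figure D5:**
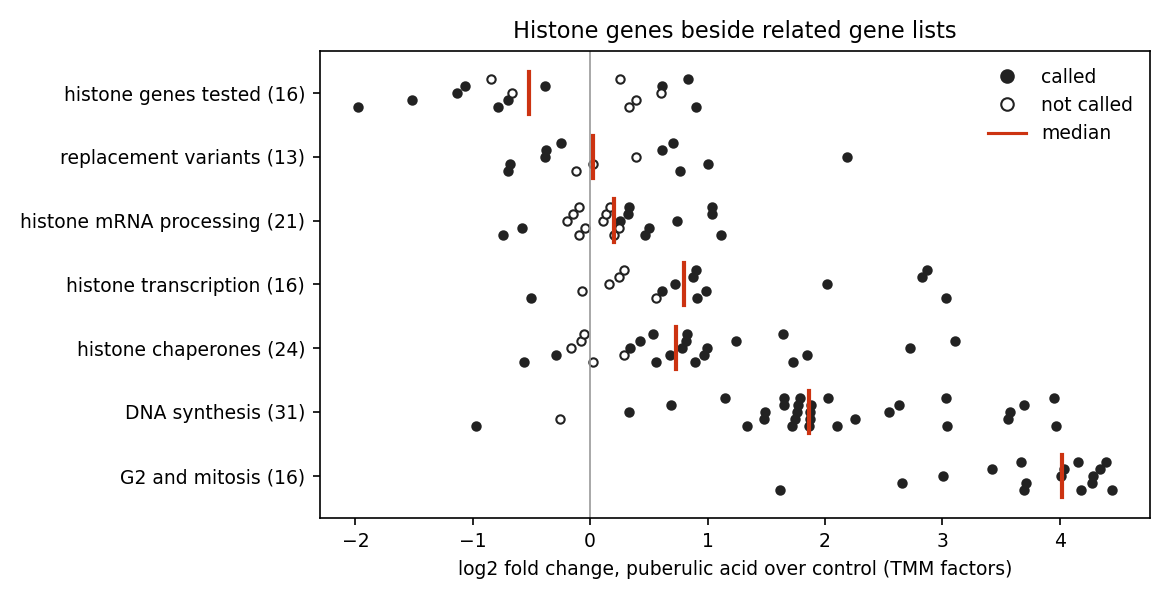
Log2 fold change (puberulic acid over control, TMM factors) of each tested gene of the histone set and of 6 related lists, with filled points called, open points not called, a vertical red line at each median and the number tested in brackets. The histone genes have a median of -0.52 and span both directions, while DNA synthesis and mitosis genes have medians of 1.87 and 4.02.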

How the data were processed

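Poly(A)-selected, strand-specific RNA libraries of whole mouse kidney were measured, per the labels' protocols. The authors deposited 1 table of values per gene with decimals and no stated normalization, which are read here as estimated (expected) counts. The estimated counts were made by the authors from the reads, and the submitters' processing notes name fastp 0.22.0, FastQC 0.12.1, MultiQC 1.28, Salmon 1.10.3, DESeq2 and the build GRCm39, with no roles given. How reads were divided among near-identical histone copies is not given in the sources used here. Columns were assigned by name to 5 control and 5 puberulic acid samples, and 10 sample columns were not used in any step.

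The estimated counts were rounded, low genes were removed by filterByExpr and TMM factors were computed, after which edgeR 4.0.16 (quasi-likelihood test, limma 3.58.1, R 4.3.3) was fitted to the 10 samples with Benjamini-Hochberg adjustment over all 16266 genes tested. A gene was called at an adjusted p under 0.05. Errors of means are SDs over 5 samples, and errors of log2 fold changes are standard errors. Summed levels and shares were given with no test, apart from the summed Hist2h2aa pair. On simulated counts with 200 genes changed and 15157 tested for this comparison, the test called 90.5% of the changed genes in the right direction, and genes without a change made up 3.21% of its calls. The changed genes were drawn from those with enough counts, and the same dispersion served all genes. Few genes changed, and no shift like that of the TMM factors was simulated. These figures therefore do not give the accuracy for these data or for scarce genes.

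The histone genes were matched by the symbol in GENCODE M21 (71 genes) or by the newer RefSeq symbol (4 genes), and 51344 of the 55822 identifiers had a symbol. A gene was called shared by the percent of its 31-base words found in another gene's transcript, and 43 of the 75 genes reached 50%. Transcript ends come from GENCODE M21 and may differ from the annotation used for counting.

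Genes and companion lists were chosen with earlier results of these data known. The rule for named genes took, per family, the 4 tested genes with the highest mean CPM, the 5 largest and 5 smallest log2 fold changes, H1f0, H1f10 and the germ-cell histones, and the 3 called and 3 uncalled genes nearest the threshold. From companion lists, replacement variants and mRNA processing genes could be named freely and other lists gave their 3 largest changes. H1f9 was not matched, nor were H3f5, H2ap, Symplk and Codanin1 of the lists.

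Same-numbered samples deviated from their group means with correlations of -0.163 to 0.0159, so the numbers were not taken as pairs. The alternatives were RLE and upper-quartile factors, total counts, no filter, a filter of 1 CPM in 5 samples, DESeq2 1.42.0, a robust fit, the replicate block, leaving out mitochondrially encoded genes and leaving out each sample in turn. The Hist2h2aa pair was summed as an alternative added after the data were seen. The floor of 3 counts covers counting error only, while the ± values include the spread between samples. Sums and shares were computed with Python 3.11.15 and pandas 2.3.3.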

Additional observations from a re-analysis of the deposited data

Results flagged for a closer look

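Of 52 groups of 5 values searched, 2 held a sample that stood apart from the other 4 by Dixon's criterion, about as many as chance gives at 1 in 20 groups. Hist1h4c reached 1.345 CPM in puberulic acid sample 4, and the nearest of the other treated samples had 0.635 CPM. The summed level of the 31 genes with no stem-loop in an annotated transcript was 248.4 CPM in puberulic acid sample 5, below the nearest treated sample at 267.5 CPM.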

How the results depend on the processing

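The 7 genes called lower stayed at 7 or 8 when any 1 sample was left out, and the number called higher ran from 1 to 5. DESeq2 gave 9 higher of 46 histone genes with an adjusted p, no filter 10 of 68 (29.4% and 21.9% of all genes in these fits) and total counts 6 of 16, against 3 of 16, and total counts gave 4 lower. With total counts H1f0 reversed to a log2 fold change of 0.125 (adjusted p = 0.245), replacement variants had 9 higher and 0 lower, mRNA processing genes 19 and 0, cell cycle exit genes 9 and 2, and transcription and chaperone genes 0 lower each. Leaving out 1 sample gave a lowest count of 3 replacement variants called lower and a highest of 5, and 2 to 5 for cell cycle exit genes. The histone share in plain CPM (544.6 in controls, 468.4 with puberulic acid) became 682.5 and 538.3 without mitochondrially encoded genes, and 649.7 and 393.6 as TMM-scaled CPM. With the replicate block, 10325 genes were called, against 10622 without it, and 2 histone genes were higher and 9 lower; numbers pair no animals here. Over all single genes and alternatives, 277 kept direction and side of the threshold, 14 lost the call, 10 gained it and 1 reversed, and the cause was not tested. Depth limits the 59 scarce genes, for which no fold is given gene by gene.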
